A study of Solanum lycopersicum and Solanum pimpinellifolium with 9 samples.

Results

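Root was set against stem in the cultivated tomato Solanum lycopersicum, cultivar MoneyMaker, over the genes that reached at least 25 RPKM in either organ. RPKM is the read number scaled by gene length in kilobases and by the reads of the library. The deposited list holds 34727 gene IDs, of which 8810 (25.4%) met this level, and all of them are accounted for below. The root library came from grown roots taken below ground. The stem library came from the upper stem under the shoot tip. All plants were potted in soil and kept in a greenhouse with 16 h of light and 8 h of dark. The other 7 libraries are MoneyMaker leaf aged 2 to 3 weeks, open flower without sepals, mature green, breaker and ripe fruit, and leaf aged 2 to 4 weeks and ripe fruit of LA0722, an accession of the wild relative Solanum pimpinellifolium. Each organ is 1 library, so no difference has a replicate check, and how many plants went into a library is not stated in the labels. In such bulk samples fewer cells of a type and less RNA per cell cannot be told apart.

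Root and stem are the below-ground and above-ground parts of the plant axis. Roots anchor the plant and take up water and mineral ions, with specialised hair, cortex and endodermis cells and no need for light. The stem of tomato is green, carries chloroplasts in its outer tissues and holds xylem and phloem that move water upward and sugars away from the leaves, and close to the shoot tip its cells are still dividing, elongating and building walls. The deposited IDs are of the Solyc form and come with no name or product attached, and 0 of them occur in the reference annotation of 41476 tomato genes. Genes are therefore given here by ID only, at most 2 in each direction for a given question, and the organ labels could not be checked by the names of marker genes.

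Both libraries were of nearly equal depth. The steps of the RPKM values imply 337997 reads assigned to genes in root and 337068 in stem, so root was 0.28% deeper, and 1 read on a gene of 1 kb amounted to 2.96 RPKM in root and 2.97 in stem. Over the 9 libraries the totals ran from 211201 in LA0722 ripe fruit to 380305 in MoneyMaker leaf. Values near the level of 25 RPKM therefore rest on few reads, and intervals given below cover counting error only.

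More genes were higher in root than in stem. A gene was counted as higher in an organ when log2(RPKM + 5) differed by at least 2 log2 units, that is 4-fold after adding 5 RPKM to each value, a scale that understates the fold of low genes. By this rule 1132 of the 8810 genes (12.8%) were higher in root and 755 (8.57%) were higher in stem, while 6923 passed in neither direction. Together 21.4% of the compared genes passed. The median of root minus stem was 0.10 log2 units, and its sign turned, to -0.03, when the libraries were scaled by median-ratio size factors. The lower and upper quartiles were -0.75 and 1.03, and the 5% and 95% points were -2.78 and 3.32. Of all members 4866 (55.2%) differed by less than 1 log2 unit. At least 25 RPKM was found in both organs for 4949 genes, in root only for 2201 and in stem only for 1660.

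**Figure D1:**
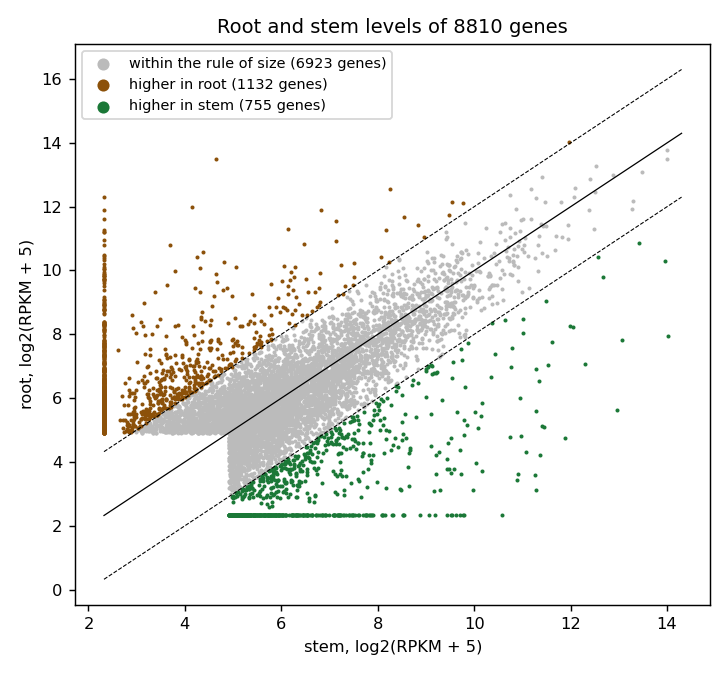
Each point is 1 of the 8810 genes, with log2(RPKM + 5) in stem on the x axis and in root on the y axis; the solid line marks equal values and the dashed lines a difference of 2 log2 units. The 1132 genes higher in root include a column at the left edge, 658 genes listed at 0 in stem, and the 755 genes higher in stem include a row at the bottom, 328 genes listed at 0 in root.

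The largest differences were genes of high level in root with no read in stem, and genes of stem and leaf with 1 read or none in root. Solyc07g009230 stood at 5008 RPKM in root (391 reads) and was listed at 0 in stem, at least 130-fold higher against a floor of 3 reads. Elsewhere it stood at 20.2 RPKM in flower and 61.5 RPKM in LA0722 ripe fruit, which are 1 and 3 reads, and was listed at 0 in both leaves and the 3 MoneyMaker fruit stages. Solyc01g109900 stood at 3806 RPKM in root (328 reads) and was listed at 0 in stem, at least 109-fold higher by the same floor. Its only other value was 11.3 RPKM, 1 read, in mature green fruit. All other reads of both genes in the 9 libraries thus came to 5, of which none was in stem or leaf.

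In the other direction, Solyc02g085950 was listed at 0 in root and stood at 1530 RPKM in stem (280 reads), at least 93.6-fold higher. Stem was not its main site. Its leaf levels were 36183 RPKM (MoneyMaker) and 18931 RPKM (LA0722), and it stayed between 34.5 RPKM in flower and 378 RPKM in breaker fruit elsewhere, except for MoneyMaker ripe fruit, where it was listed at 0. Solyc12g009650 stood at 3.71 RPKM in root, a single read, and at 2487 RPKM in stem (669 reads), a 671-fold difference with a 95% exact interval of 120 to 26536. Its level in MoneyMaker leaf, 2168 RPKM, was close to that in stem. It stood at 329 RPKM in LA0722 leaf, 299 RPKM in flower and 11.7 RPKM in breaker fruit. The other 3 fruit libraries had none of it.

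The most abundant genes past the rule differed in how far the organ difference went. Solyc11g069900 was the most abundant gene of the root library at 16765 RPKM (986 reads). It also stood at 3973 RPKM in stem (233 reads), so it was only just past the rule, at 4.22-fold with an interval of 3.66 to 4.89, and it was listed at 0 in all 7 other libraries. It was thus found in root and stem alone. Solyc04g007760 stood at 11579 RPKM in root (1726 reads), 20.2 RPKM in stem (3 reads) and 23.9 RPKM in MoneyMaker leaf (4 reads) and at 0 in the other 6. The fold of Solyc04g007760 over stem was 574, with an interval of 196 to 2785. Both are short, with inferred lengths of 174 nt and 441 nt. RPKM of short genes can be inflated when reads reach beyond the length used for scaling. This also applies to Solyc07g009230 (231 nt) and Solyc01g109900 (255 nt).

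Among genes higher in stem, Solyc03g005760 led with 16531 RPKM (4480 reads) against 239 RPKM in root (65 reads), 69.1-fold with an interval of 54.1 to 89.7. Both leaves had more of it, 62008 RPKM in MoneyMaker and 35153 RPKM in LA0722. It stood at 2861, 1003 and 18.4 RPKM in mature green, breaker and ripe MoneyMaker fruit, 112 RPKM in LA0722 ripe fruit and 75.7 RPKM in flower. Solyc08g074480 followed with 15928 RPKM in stem (2126 reads) and 1240 RPKM in root (166 reads), 12.8-fold with an interval of 11.0 to 15.1. Its levels in mature green and breaker fruit, 16588 and 17662 RPKM, were like that in stem, while the LA0722 libraries had only 470 RPKM in leaf and 407 RPKM in ripe fruit. It stood at 11952 RPKM in MoneyMaker leaf, 5341 RPKM in MoneyMaker ripe fruit and 177 RPKM in flower.

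Some of the genes of highest RPKM in both organs did not separate them. Solyc09g010800 and Solyc04g058150 were the most abundant of the 2744 genes within 0.5 log2 units. Their inferred lengths are 249 nt and 219 nt, so the caution on RPKM of short genes applies to them too. Solyc09g010800 stood at 13949 RPKM in root and 16395 RPKM in stem, a stem excess of 1.18-fold (1.09 to 1.27), and elsewhere between 5808 RPKM, in the leaf of MoneyMaker, and 29898 RPKM, in that of LA0722. Solyc04g058150 stood at 8741 RPKM in root and 11488 RPKM in stem, a stem excess of 1.31-fold (1.19 to 1.46). Every other library had less of Solyc04g058150, from 713 RPKM in LA0722 ripe fruit to 2764 RPKM in mature green fruit. Both intervals lie above 1, but they cover counting error only and rest on inferred read numbers. They leave out the scaling of the libraries, where median-ratio size factors shifted root by -0.09 log2 units. The spread between plants was not measured.

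**Figure D2:**
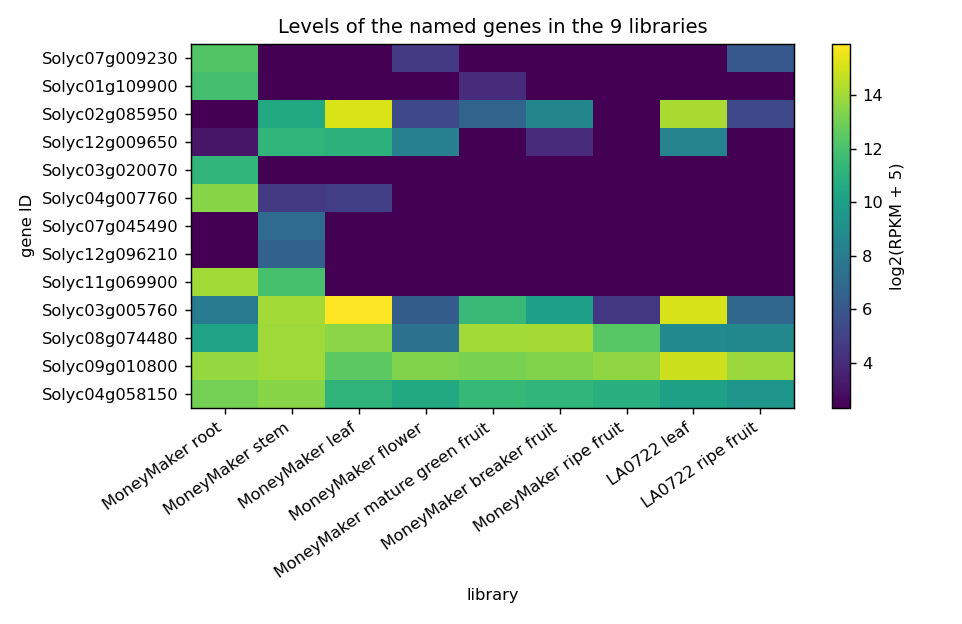
Colour gives log2(RPKM + 5) of 13 genes (rows) in the 9 libraries (columns), the darkest colour being 0 RPKM. Solyc07g009230, Solyc01g109900, Solyc03g020070 and Solyc04g007760 are bright in root and dark in nearly all other columns, whereas Solyc02g085950 and Solyc03g005760 are brightest in both leaves.

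Most of the called genes were of modest level. The genes higher in root had a median of 65.0 RPKM in root, with quartiles of 37.5 and 147 RPKM, and those higher in stem a median of 71.3 RPKM in stem, with quartiles of 39.7 and 177 RPKM. At 1000 RPKM or more there were 44 genes higher in root and 43 higher in stem. A difference of at least 4 log2 units was reached by 247 genes higher in root and 153 higher in stem, and one of at least 6 log2 units by 59 and 32. The genes higher in root together held 19.5% of the summed RPKM of root and 1.37% of that of stem. Those higher in stem took 19.0% of stem and 1.30% of root. These shares follow from the rule that chose the genes and are given for scale.

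A larger share of the genes higher in root was listed at 0 in the other organ, but these shares depend on the rule. Any member listed at 0 in 1 of the 2 organs passes it. Over all 8810 members 7.47% were listed at 0 in stem and 3.72% in root. Of the 1132 genes, 658 (58.1%) were listed at 0 in stem and 108 had 25 RPKM or more there. Of the 755 genes higher in stem, 328 (43.4%) were listed at 0 in root and 104 had 25 RPKM or more there. Read numbers, the smallest that fit, were often low. In the organ where they were higher, 417 of the genes higher in root and 223 of those higher in stem had under 10 reads. At 100 reads or more there were 102 and 106. The counting interval of the ratio lay above 1 for 839 of the genes higher in root (74.1%) and 610 of those higher in stem (80.8%), and above 4 for 318 and 221. The intervals use the same reads that chose these genes, so these counts are not a separate check of the rule. At the edges of the rule, the lowest member stood at exactly the limit of 25 RPKM and the highest gene left out at 24.99 RPKM. The gene just past the size limit on the root side had 614 RPKM in root and 149 RPKM in stem, and the one just short of it 75.5 and 15.1 RPKM. On the stem side these were 77.9 RPKM in root and 328 RPKM in stem just past the limit, and 10.9 and 58.4 RPKM just short of it.

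The other 7 libraries, which the rule did not use, held few of the genes higher in root. At 25 RPKM or more, 626 of the 1132 (55.3%) were found in none of them, against 860 of the 6923 genes within the rule of size (12.4%) and 128 of the 755 genes higher in stem (17.0%). The genes within the rule are not a like background. In stem 83.0% of them reached 25 RPKM, against 9.54% of the genes higher in root. In root 85.4% of them did, against 13.8% of the genes higher in stem. How far this bears on the shares in the other libraries was not tested. Of the genes higher in root 293 (25.9%) were listed at 0 in all 7, and only 22 reached the level in all 7. In MoneyMaker leaf 142 of them (12.5%) reached 25 RPKM, compared with 3398 of the genes within the rule (49.1%). The 12.5% was 5.21% when the level was set at 100 RPKM and 19.2% with median-ratio size factors. Flower had 13.8% of them against 29.9% of the genes within the rule, and LA0722 leaf 15.7% against 54.2%. MoneyMaker fruit had 19.6% against 69.6% when mature green, 21.0% against 60.8% at breaker and 21.5% against 60.2% when ripe, and LA0722 ripe fruit 16.0% against 53.1%. In all 7 libraries the share was thus below that of the genes within the rule. Root was the library of highest level for 865 of the 1132 genes (76.4%), against 24.5% of all members, but a high root value was part of the choice of these genes. Each other library was highest for at most 5.57% of them (MoneyMaker ripe fruit, against 11.9% of all members).

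**Figure D3:**
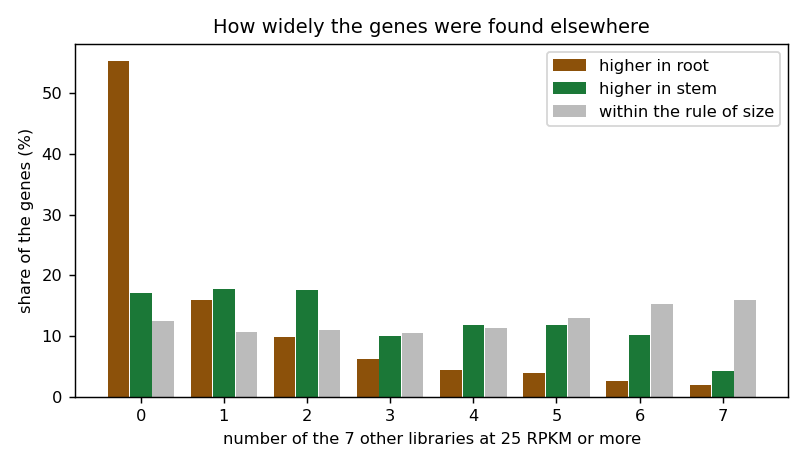
Bars give the share of genes (y axis, %) by the number of the 7 other libraries in which they had 25 RPKM or more (x axis), for genes higher in root, higher in stem and within the rule of size. The root bar at 0 libraries, 55.3%, stands above the 17.0% of genes higher in stem and the 12.4% of genes within the rule.

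Counted over all genes higher in root, the shares for fruit alone and leaf alone were close to those of all members. The shares for leaf with fruit and for all organs were smaller. Both bases include genes found in no other organ, 55.3% of the genes higher in root and 18.3% of all members. The shares therefore do not describe only the genes that were found elsewhere. Taking both leaves as 1 organ and the 4 fruit libraries as 1 organ, 189 of the genes higher in root (16.7%) reached 25 RPKM in fruit alone, against 16.4% of all members, 64 (5.65%) in leaf alone, against 6.25%, and 35 (3.09%) in flower alone, against 1.17%. Leaf with fruit held 97 of them (8.57%), against 32.0% of all members, and all 3 organs held 79 (6.98%), against 22.1%. The remaining 32 were found in flower and fruit and 10 in leaf and flower. The genes higher in root took 11.1% of summed RPKM in MoneyMaker ripe fruit and 15.1% in LA0722 ripe fruit, against 1.54% in MoneyMaker leaf and 2.48% in LA0722 leaf. Most of this share was 1 gene, Solyc07g049140, named here after its values were seen. It passed the rule on the root side with only 30.5 RPKM in root, 3 reads, and 0 in stem, and stood at 103487 RPKM in MoneyMaker and 153272 RPKM in LA0722 ripe fruit. Without it the share was 4.54% in MoneyMaker and 3.97% in LA0722 ripe fruit, and without the top 10 genes of each library it was 2.52% and 1.80%, against 14.7% in root.

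The genes higher in stem made up a large part of the leaf libraries. They took 52.8% of the summed RPKM of MoneyMaker leaf and 30.9% of LA0722 leaf, both above their 19.0% in stem, and 30.3% and 18.8% without the top 10 genes of each leaf library. In MoneyMaker leaf 476 of the 755 genes (63.0%) reached 25 RPKM, and in LA0722 leaf 348 (46.1%). The genes within the rule had 49.1% and 54.2% at that level in the same libraries. Leaf was above stem for 323 of the 755 genes in MoneyMaker, 140 of them by at least 2 log2 units. By that margin 226 were lower in leaf. These counts have no counterpart over all members, and a high stem level was part of the choice of the genes. MoneyMaker leaf was the highest of the 9 libraries for 217 of the genes (28.7%), against 5.41% of all members. LA0722 leaf was highest for 93 (12.3%), close to its 10.3% of all members, and stem, whose level took part in the choice, for 290 (38.4%), against 17.5%. The median of the 755 genes in log2(RPKM + 5) was 6.25 in stem, 6.03 in MoneyMaker leaf and 4.61 in LA0722 leaf, against 3.06 in root and 3.01 in flower. Flower was low for the compared genes in general. All members took 29.2% of summed RPKM in flower, against 74.5% (LA0722 ripe fruit) or more in every other library. The genes within the rule had a median of 3.94 in flower and 5.81 in root.

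Fruit held the genes higher in stem to a degree that differed by stage. At 25 RPKM or more, 391 of the 755 (51.8%) were found at the mature green stage, 310 (41.1%) at breaker and 202 (26.8%) at the ripe stage of MoneyMaker, with 218 (28.9%) in LA0722 ripe fruit and 159 (21.1%) in flower. The genes within the rule of size stood at 69.6%, 60.8% and 60.2% in the same 3 MoneyMaker stages. Their shares were 53.1% in LA0722 ripe fruit and 29.9% in flower. The median of log2(RPKM + 5) of the genes higher in stem went from 5.02 in mature green to 4.16 in breaker and 2.32 in ripe fruit, the last being the value of a gene at 0. By organ, 124 of the 755 genes (16.4%) reached 25 RPKM in leaf alone, against 6.25% of all members. Leaf with fruit was found for 265 (35.1%), near the 32.0% of all members, and no other organ for 128 (17.0%), near their 18.3%. Fruit alone held 79 (10.5%), against 16.4%, and all 3 organs 106 (14.0%), against 22.1%.

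**Figure D4:**
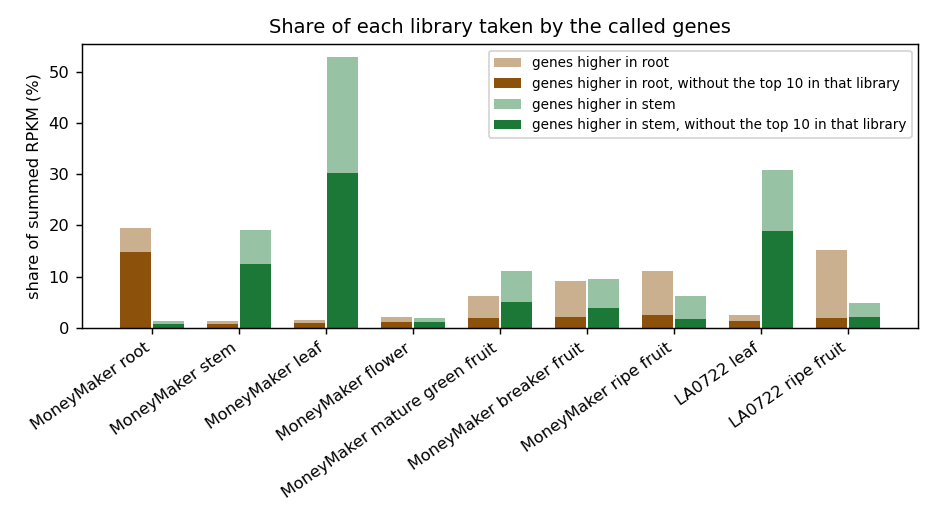
Bars give the share of summed RPKM (y axis, %) that the 1132 genes higher in root and the 755 higher in stem took in each of the 9 libraries (x axis), pale for all of them and dark without the 10 of highest level in that library. The genes higher in stem reach 52.8% in MoneyMaker leaf, and the 15.1% of the genes higher in root in LA0722 ripe fruit goes down to 1.80% without its top 10.

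Genes that stood out against all libraries, not only against the other end of the axis, were more numerous in root. With the same rule of size applied against each of the other 8 libraries, 520 of the 1132 genes (45.9%) passed in root and 88 of the 755 (11.7%) in stem. Their shares of summed RPKM were 13.8% for root and 3.25% for stem. The comparison of root with stem is among these 8 and was passed by the choice of the genes. Only the comparisons with the 7 other libraries were thus open. The percentages of genes are of the called genes only, and no such count was made for any of those 7 libraries. In root 259 of the 520 were listed at 0 in all 8 others, the organ used for the choice included, and in stem 26 of the 88. The leading root gene by this measure was Solyc03g020070, at 2478 RPKM in root (201 reads, inferred length 240 nt) and 0 elsewhere. Against 3 reads in stem this is at least 66.8-fold. The next was Solyc04g007760, described above. The leading stem genes were weakly supported. Solyc07g045490 stood at 132 RPKM and Solyc12g096210 at 87.3 RPKM in stem, on 2 and 3 reads with inferred lengths of 45 nt and 102 nt, and both were listed at 0 in the 8 other libraries. No fold is given for them, since both are at or under the floor of 3 reads. Of the 88 stem genes 16 had 100 reads or more and 31 had under 10, with a median of 24.5 reads. Of the 520 root genes 78 had 100 reads or more and 156 had under 10, with a median of 19.0 reads.

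The called genes were shorter than the compared genes as a whole. The inferred length had a median of 560 nt for genes higher in root, 666 nt for genes higher in stem and 819 nt for all members. Lengths under 300 nt were found for 318 of the genes higher in root (28.1%), 138 of those higher in stem (18.3%) and 1008 of all 8810 members (11.4%). Read steps give only the smallest length that fits, and this is least certain for genes listed in few libraries, which are frequent among genes higher in root, so the part of this in the difference in length was not tested. Among the 7802 compared genes of 300 nt or more, 814 were higher in root and 617 in stem.

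The place of the genes was read from their IDs. The digits after Solyc give the chromosome and, on the 12 numbered ones, the last digits follow the order along it. On the 12 numbered chromosomes between 11.4% (chromosome 2) and 14.6% (chromosome 9) of members were higher in root, and between 6.69% (chromosome 3) and 10.3% (chromosome 5) were higher in stem. IDs with the digits 00, used for sequence not placed on a chromosome, were different: 31 of their 80 members (38.8%) were higher in root and 7 (8.75%) in stem, with a median difference of 1.32 log2 units. These 31 genes had a median of 69.9 RPKM and 7 reads in root, 15 of them had inferred lengths under 300 nt, 20 were listed at 0 in stem, and 5 were listed at 0 in all 8 other libraries. Together they held 0.606% of the summed RPKM of root.

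Most called genes had no neighbour of the same direction in the order of the table, but the share that had one was above that of other members. Of the genes higher in root 230 (20.3%) had a neighbouring ID also higher in root, against 461 of the 6923 genes within the rule (6.66%) and 51 of the genes higher in stem (6.75%). Of the genes higher in stem 90 (11.9%) had a neighbouring ID also higher in stem, against 353 of the genes within the rule (5.10%) and 51 of the genes higher in root (4.51%). They lay in 104 runs of 2 or more consecutive IDs for root and 40 for stem. IDs with the digits 00 were counted too, though their order is not one along a chromosome. The longest stem run had 5 consecutive genes on chromosome 2, all with an inferred length of 798 nt. They stood at 212 to 2138 RPKM in stem (57 to 575 reads), at 0 to 14.8 RPKM in root, at 3397 to 13404 RPKM in MoneyMaker leaf, at 267 to 3323 RPKM in LA0722 leaf and at no more than 65.0 RPKM in flower or any fruit. The longest root run had 5 genes on chromosome 7, at 101 to 325 RPKM in root and 0 in stem, with no more than 14.0 RPKM in any other library. Its reads, 1 to 29 at the smallest that fit, and inferred lengths of 12 to 264 nt are too small to be firm. Root also had 3 runs of 4. The run on chromosome 9, all with an inferred length of 336 nt, stood at 35.2 to 1374 RPKM in root (4 to 156 reads), 0 to 265 RPKM in stem and up to 237 RPKM in LA0722 leaf. The other two were not highest in root throughout: the run on chromosome 8 stood at 42.0 to 555 RPKM in root and up to 921 RPKM in mature green fruit, and the one with the digits 00 at 50.6 to 224 RPKM in root and up to 302 RPKM in LA0722 leaf. Neighbours of equal length can be near-identical copies, among which the authors' read assignment may have split or lost reads, so the values of single genes in these runs are uncertain.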

How the data were processed

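The authors deposited RPKM values of 9 pyrosequenced cDNA libraries. HTSeq is named in the submitters' processing notes; aligner, genome build, annotation and filters: not given in the sources used here. The column for mature fruit was taken as mature green, and the berry column with the number 10 as ripe MoneyMaker fruit by elimination.

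Whole reads were recovered, since deposited RPKM values move in steps of 1 read. Totals between 200000 and 420000 reads and lengths in multiples of 3 nt, an inference, were sought, with other whole lengths for 84 genes. All 23089 genes above 0 had a solution, and 100% of 128956 values came within 0.05 of a whole read, as the method requires. Recovered reads made up 98.6% of the implied total in root and 99.7% in stem. In simulated data for root against stem and the other libraries (22103 genes) 97.5% of read numbers in root and stem were exact. The simulation took the recovered lengths and totals as true. It therefore cannot show how often a length, and with it the reads, was recovered too small. Read numbers are the smallest that fit.

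No test was run, because each side has 1 library. Folds are RPKM ratios with exact conditional binomial 95% intervals on reads, or bounds against 3 reads where the lower library is at 0. Genes named are the 2 per direction with the largest difference, the largest lead over all 8 other libraries and the highest level, and the 2 most abundant within 0.5 log2 units. Members, thresholds and naming rule were chosen with earlier results of these data known. Planned lists of annotated genes and marker checks were not run, and no sequences are printed, because no ID was annotated in the sources used here. Python 3.11.15, numpy 2.4.6, pandas 2.3.3 and scipy 1.17.1 were used.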

Additional observations from a re-analysis of the deposited data

How the results depend on the processing

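More genes were higher in root than in stem under all 13 alternatives run. A pseudocount of 20 RPKM gave 465 genes higher in root and 288 in stem. A size rule of 1 log2 unit gave 2243 and 1701, and one of 3 log2 units gave 612 and 348, all of the same 8810 genes. A level of 100 RPKM gave 384 and 295, but of only 2982 compared genes. Asking for 10 reads left 715 in root and 532 in stem. The median difference of 0.10 turned to -0.03 with median-ratio size factors, which shift root by -0.09 log2 units against stem. These factors gave 869 and 673 of 7506 compared genes. The upper-quartile and equal-sum scalings shifted root by 0.01 and -0.02. The share of genes higher in root that reached the level in MoneyMaker leaf, 12.5%, was 5.21% at 100 RPKM and 19.2% with median-ratio size factors, where the same share of genes higher in stem was 67.1% and 72.5%. The cause of these changes was not tested. No paired analysis was possible because each group has 1 library. Depth limits the genes with under 10 reads, and the spread between plants is unknown.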
